A study of Mus musculus with 44 samples.

Results

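The axon guidance ligands and receptors described here are 65 of the 20661 autosomal protein-coding genes of the mouse genome (build mm10). They were taken by symbol: every gene starting Sema, Plxn, Epha, Ephb, Efna, Efnb or Unc5, with Robo1 to Robo4, Slit1 to Slit3, Ntn1, Ntn3, Ntn4 and Dcc. There are 33 ligands, of which 20 are semaphorins, 7 ephrins, 3 Slits and 3 netrins. The 30 receptors are 14 Eph receptors, 7 plexins, 5 netrin receptors (Dcc and Unc5a to Unc5d) and 4 Robos. The prefixes also take Unc50 and Unc5cl, which are not guidance molecules. Inside these genes or within 20 kb of them lay 1532 of the 183089 accessible regions of the series. A region is a window of 500 bp on a peak summit that was among the 100000 best-ranked autosomal summits of at least 1 library.

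Accessibility was measured by ATAC-seq, in which the Tn5 transposase inserts adapters into open chromatin, in 44 libraries of neurons from the cortex of mouse embryos at embryonic day 16.5, kept for 7 or 18 days in vitro (DIV7 and DIV18). The drug experiment at DIV7 has 16 libraries of wild-type neurons in 8 groups: 0.1% DMSO or 100 nM FHT1015, for 10 or 30 min, unstimulated or in 50 mM KCl. FHT1015 inhibits the ATPase activity of BAF, a chromatin remodelling complex, and KCl depolarizes neurons. The Arid2 experiment at DIV7 has 8 libraries in 4 groups, with a non-targeting guide RNA or an Arid2 knockout guide, unstimulated or after 30 min of KCl. Arid2 belongs to PBAF, another form of the complex. The DIV18 experiment has 20 libraries in 10 groups: the non-targeting guide, Smarcc2 knockout with vector, and Smarcc2 knockout with wild-type, S586A or S586E Smarcc2, each unstimulated or after 30 min of KCl. Smarcc2 is a core BAF subunit. In S586A a serine is replaced by alanine, which cannot carry phosphate, and in S586E by glutamate, which is commonly used to mimic phosphoserine. Cultures were silenced overnight with 1 µM tetrodotoxin and 100 µM D-AP5, and all groups have 2 libraries. The guides act on infected cultures and not on a clone, and peak lists do not check the loss of either protein. Each embryo's cortex is counted as a biological replicate in the labels, but nothing ties a library to an embryo, so p-values here measure the spread between these libraries.

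Guidance cues steer growing axons. Slits act on Robo receptors and mainly repel axons, netrins attract through Dcc and repel through the Unc5 receptors, semaphorins signal through plexins, and ephrins bind Eph receptors between touching cells. In the cortex these systems pattern tracts such as the corpus callosum and the thalamocortical projection, and several members also act later at synapses, EphB receptors in forming dendritic spines among them. An accessible region at a gene start usually marks a promoter in use, and regions in the body or flank can be enhancers.

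The promoters of Efna1, Efna2, Efna4 and Slit3 are shown because the accessibility of their starts turns on age or depolarization below. The sequences are from RefSeq on GRCm38.p6, the assembly of mm10, and run 5′ to 3′ on the gene's strand from 250 bases before to 50 after the start. Capitals mark GGGCGG, the GC box, found on either strand, so that it also reads CCGCCC. Efna1 lies at chr3:89279596-89279895 on the minus strand, Efna2 at chr10:80179232-80179531 on the plus strand, Efna4 at chr3:89337979-89338278 on the minus strand and Slit3 at chr11:35121206-35121505 on the plus strand.
Efna1: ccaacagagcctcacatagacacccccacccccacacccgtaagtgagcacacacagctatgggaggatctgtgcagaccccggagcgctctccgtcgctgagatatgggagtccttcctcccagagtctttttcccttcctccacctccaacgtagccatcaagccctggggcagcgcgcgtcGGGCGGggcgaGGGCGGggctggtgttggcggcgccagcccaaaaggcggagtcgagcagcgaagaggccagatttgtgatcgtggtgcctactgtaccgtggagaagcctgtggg
Efna2: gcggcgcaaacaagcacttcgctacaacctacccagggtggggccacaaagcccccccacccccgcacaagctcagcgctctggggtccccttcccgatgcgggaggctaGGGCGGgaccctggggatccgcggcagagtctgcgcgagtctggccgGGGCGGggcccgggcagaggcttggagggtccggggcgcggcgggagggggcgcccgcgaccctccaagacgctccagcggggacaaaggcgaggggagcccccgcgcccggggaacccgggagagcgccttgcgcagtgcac
Efna4: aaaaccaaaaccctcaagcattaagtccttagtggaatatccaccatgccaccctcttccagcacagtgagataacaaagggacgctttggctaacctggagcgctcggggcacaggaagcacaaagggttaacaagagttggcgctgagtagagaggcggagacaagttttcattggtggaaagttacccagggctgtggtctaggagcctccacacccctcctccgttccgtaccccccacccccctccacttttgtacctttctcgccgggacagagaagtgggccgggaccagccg
Slit3: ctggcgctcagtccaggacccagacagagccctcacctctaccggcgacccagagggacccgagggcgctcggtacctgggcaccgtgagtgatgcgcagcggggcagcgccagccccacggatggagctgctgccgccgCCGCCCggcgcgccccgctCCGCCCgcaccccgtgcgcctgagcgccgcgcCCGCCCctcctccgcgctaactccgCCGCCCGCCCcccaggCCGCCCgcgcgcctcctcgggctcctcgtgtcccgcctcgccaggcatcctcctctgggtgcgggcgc

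The Efna1 and Efna2 promoters each hold 2 GC boxes and the Efna4 promoter holds none, while Slit3 holds 6. Their GC content is 63.3% in Efna1, 74.7% in Efna2, 55.7% in Efna4 and 78.3% in Slit3, and they contain 20, 31, 11 and 41 CpG dinucleotides. Of the 65 members, 55 had an entry in the promoter table, with 71 entries in all. At least 1 GC box was found in 52 of these 71 windows (73.2%), against 9446 of the 20084 windows of all autosomal protein-coding genes (47.0%). The median GC content was 64.3% in the members and 57.0% in all genes. TGACGTCA, the cAMP response element, was found in 1 member window (1.41%; all genes 2.3%), TGANTCA, the AP-1 motif, in 3 (4.23%; all genes 7.06%), CACGTG, an E-box, in 5 (7.04%; all genes 7.89%), and TATAAA in 2 (2.82%; all genes 12.7%). Both strands were searched, and the motifs were counted independently of each other. A match describes letters in a window and shows no binding.

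Guidance genes are long, with a median of 60868 bp against 17491 bp for all genes, and 30 of the 65 exceed 100 kb (11.2% of all genes do). Their loci held a median of 18 regions, against 8. Of the 1532 regions, 179 were at a start (within 1 kb of an annotated start of the gene), 1020 in the body and 333 in the flank. Where the annotation gave no strand, either gene end counted as a start. Among the members this holds for Plxna1, Plxna4, Unc5d, Sema3b, Sema3f, Sema6a, Ntn1, Efnb3, Slit1 and Dcc. Another gene starts at 82 of the flank regions, 147 regions lie inside another gene, and 28 lie in the loci of several members. All 44 libraries held 173 of the regions (11.3%), against 11.4% of all regions. Each library's summits were ranked by the deposited significance, and the rank score of a region is log2 of 100000 over the rank of its best summit: a step of 1 is a rank 2 times better, and 0 means outside the best 100000. Summit lists held between 178672 and 389907 autosomal summits, and read depth is not given in the sources used here. Ranks within a list were compared, since significance itself grows with depth. Such scores show relative position and not absolute accessibility, and in these bulk cultures fewer accessible cells and less accessibility per cell cannot be told apart.

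Ageing from DIV7 to DIV18 was compared in the non-targeting libraries, 4 at each age (2 unstimulated and 2 in KCl). Among the 899 member regions tested, 219 rose and 208 fell, where 29.7% of all 107551 tested regions rose and 21.8% fell (limma, Benjamini-Hochberg adjusted p below 0.05). These are 24.4% and 23.1% of the members' regions, and their median difference was 0.00, against 0.07 over all regions. At the starts 14 of 145 rose and 51 fell, or 9.66% and 35.2%, against 22.8% and 21.5% of all gene starts. In the bodies 135 of 543 rose and 125 fell (24.9% and 23.0%), against 34.5% and 19.3% of all body regions. In the flanks 70 of 211 rose and 32 fell (33.2% and 15.2%), close to the 34.2% and 17.5% of all flanks. Ligands had 114 rises and 97 falls among 443 regions, and receptors 101 and 110 among 447. The plot of called regions by position shows these shares. A region could be tested through the libraries of 1 age alone. Where all libraries of the other age scored 0, those zeros add no spread to the SE and p-value. Among the regions named below this holds at Unc5d, Epha4, Unc5cl, Sema4a, Sema4f, Sema4d, Ntn3, Efna1 and Dcc, at 0 at DIV7. It also holds at Robo1, Robo2, Unc5c, Sema3a and Sema5a, at 0 at DIV18. Age and experiment cannot be told apart, because the ages come from separate experiments. With the log2 number of summits as a covariate limma called no member region, start or locus. That covariate cannot separate list length from age: the non-targeting lists held 191555 to 245130 autosomal summits at DIV7 and 290766 to 341812 at DIV18. The DIV7 DMSO libraries, set beside these results below, move the counts to 243 rises and 415 falls among 972 member regions.

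**Figure D1:**
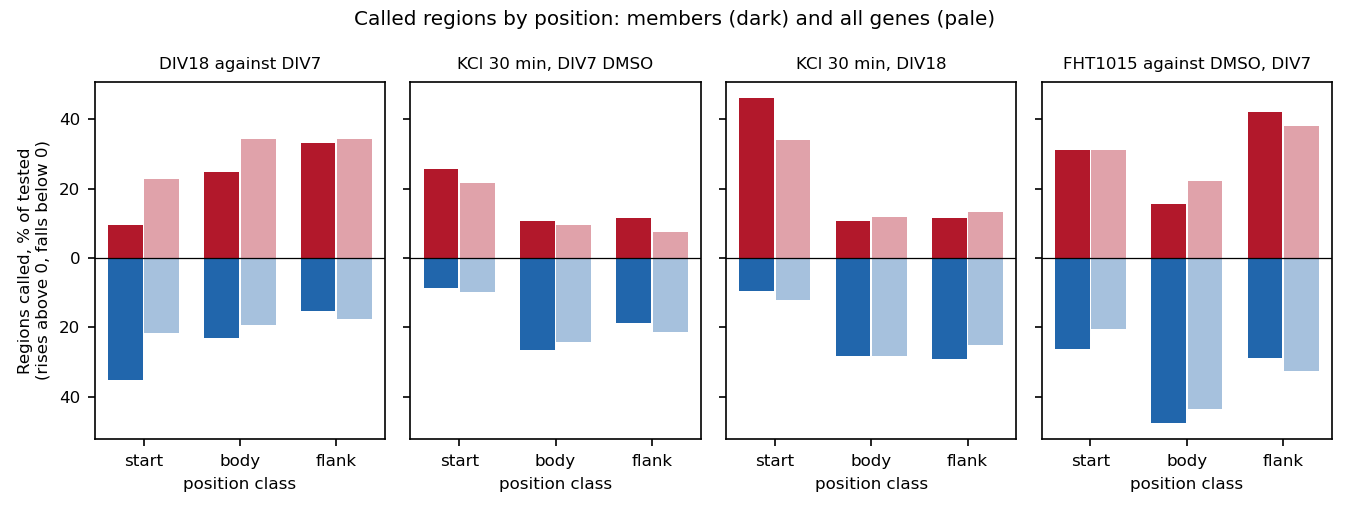
Percentage of tested regions called as rises (above 0) or falls (below 0), by position class, in 4 comparisons, for the members (dark bars) and for all genes (pale bars). Member starts fell with age in 35.2% of cases against 21.5% of all gene starts, and rose after KCl at DIV18 in 46.3% against 34.1%.

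Averaged over each locus, 21 members rose and 21 fell of 64 with at least 3 tested regions, where 44.5% of 14560 gene loci rose and 19.5% fell. The plot of loci gives each change with its standard error. The deepest falls were those of Ephb1 (-0.73, SE 0.06), Sema4c (-0.63, SE 0.08), Robo1 (-0.60, SE 0.05), Efnb2 (-0.59, SE 0.06), Slit2 (-0.52, SE 0.09) and Plxnb1 (-0.51, SE 0.08). The highest rises were Sema4a (1.20, SE 0.07), Unc5cl (1.03, SE 0.07), Efna1 (0.81, SE 0.06), Ntn3 (0.68, SE 0.08) and Slit3 (0.57, SE 0.06). Each of these 11 loci had its 4 DIV7 and 4 DIV18 values apart, which does not set them off. Loci with smaller changes had this too, even Sema6d, which was not called (0.09, SE 0.06). The share of all gene loci with values apart was not counted. Against the DMSO libraries the same loci gave -0.51, -0.92, -0.60, -0.49, -0.69 and -0.75 for the falls and 0.93, 0.45, 0.77, 0.81 and 0.39 for the rises. Other loci turned: Ntn1 was 0.40 against the non-targeting and -0.62 against the DMSO libraries, Robo3 0.45 and -0.15, and Ephb4 0.49 and -0.30. By locus the members' split was 14 rises and 32 falls of 65 against the DMSO libraries, where 35.4% of all loci rose and 35.9% fell. It was 27 and 16 with whole intervals ranked in place of summits and 25 and 15 with windows of 1000 bp.

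**Figure D2:**
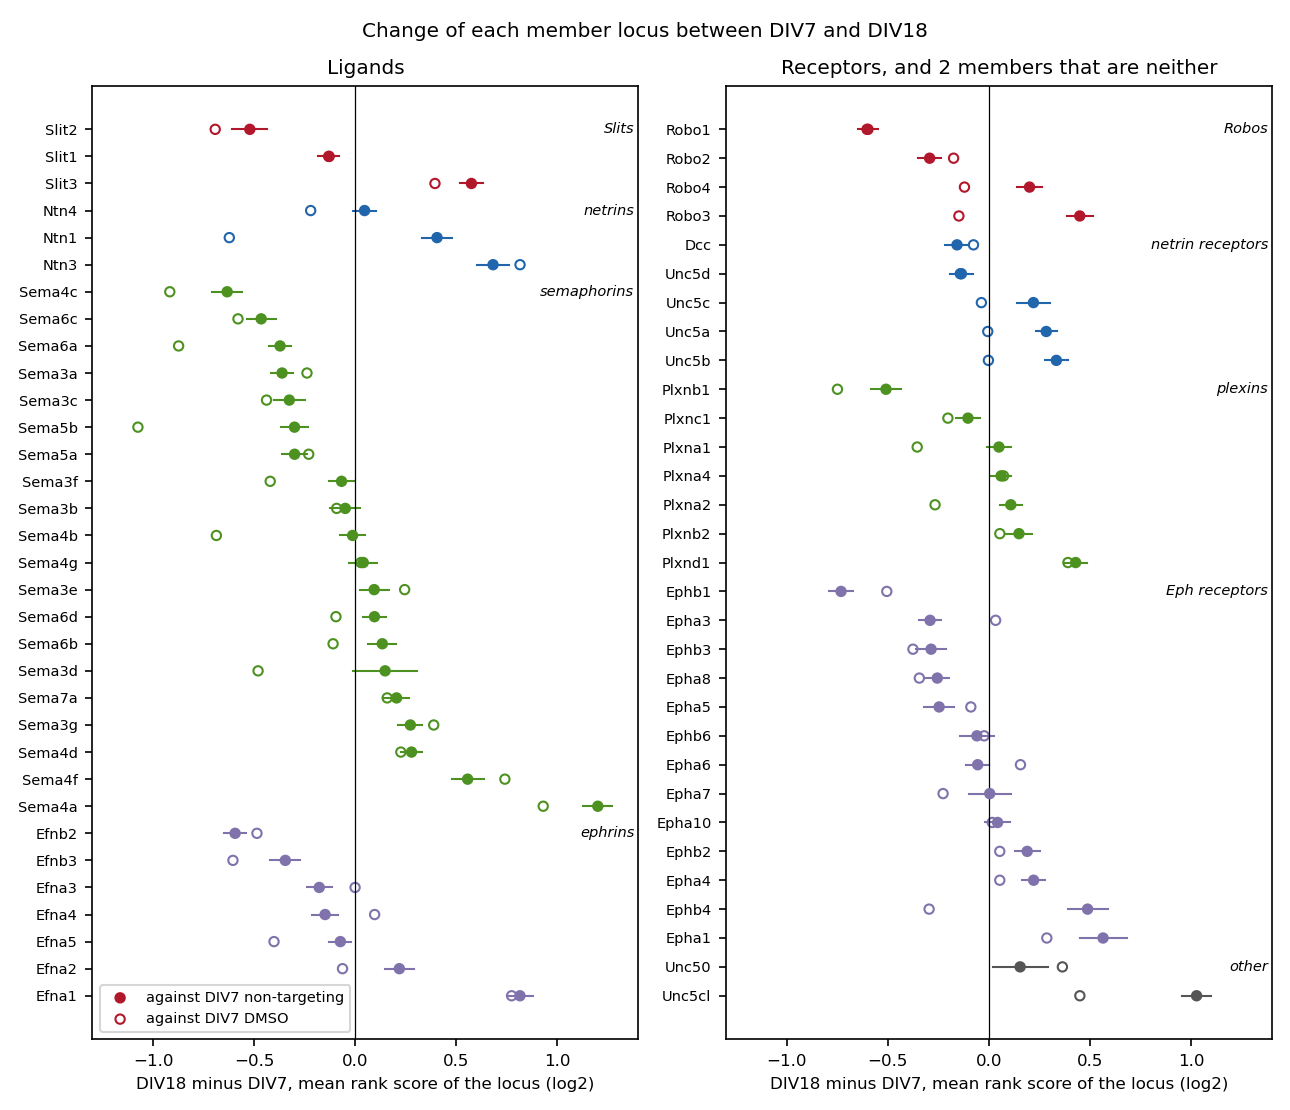
Change of each member locus from DIV7 to DIV18, as the difference of its mean rank score (log2), with ligands on the left and receptors on the right, grouped by family. Filled points with bars show the difference and standard error against the 4 DIV7 non-targeting libraries, and open points the difference against the 4 DIV7 DMSO libraries of 30 min; Sema4a and Unc5cl lie farthest to the right and Ephb1 farthest to the left among the filled points.

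The Robo receptors carry the Slit signal, and they were the family with the highest share of falls: 24 of 61 regions fell and 7 rose (39.3% and 11.5%, against 21.8% and 29.7% of all regions). Against the DMSO libraries 33 of 55 fell and 8 rose, where 36.3% and 30.8% of all regions did. Robo1 had 12 falls and 2 rises among 23 regions, and Robo2 had 11 falls and 3 rises among 34. At the Robo1 body region chr16:72794916-72795415 the DIV7 libraries scored 2.54 and 2.79 unstimulated and 2.05 and 2.53 in KCl, and the DIV18 libraries scored 0 throughout. The fall was 2.48 (SE 0.15, adjusted p = 0.0001076), but the DMSO libraries lay only between 0.00 and 0.41 there. The Robo2 body region chr16:74597923-74598422 scored 2.74 and 2.96 unstimulated and 2.65 and 2.36 in KCl at DIV7, against 0 in all 4 DIV18 libraries. It fell by 2.68 (SE 0.13, adjusted p = 6.475e-05), and by 0.66 against the DMSO libraries, which scored 0.24 to 1.06. Both regions were chosen for having no overlap between the ages among the non-targeting libraries. In both the DIV7 level was higher in the non-targeting than in the DMSO libraries.

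The start of Robo1 was chosen after its values were seen, because its DIV7 and DIV18 libraries do not overlap. At chr16:72027344-72027843, 76 bp from the annotated start, the 24 DIV7 libraries of both experiments scored 2.14, 2.61 and 2.93 (lowest, median, highest) and the 20 DIV18 libraries 0.00, 0.57 and 1.52. That no DIV18 library reached the lowest DIV7 library follows from this choice, and 1.65% of all gene starts were lower in the same way. Robo4, an endothelial member of the family, and Robo3, which controls midline crossing in the hindbrain and spinal cord, had only 4 and 3 tested regions.

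The Slit ligands went separate ways. Slit3 had 17 rises and 3 falls among 40 regions, Slit2 no rise and 6 falls among 9, and Slit1 8 rises and 11 falls among 30. Together they had 25 rises and 20 falls among 79 regions (31.6% and 25.3%, against 29.7% and 21.8% of all regions). The Slit3 body region chr11:35607136-35607635 scored 3.00 and 2.20 unstimulated and 3.24 and 3.12 in KCl at DIV18, and 0.00, 0.04, 0.00 and 0.00 at DIV7. It rose by 2.88 (SE 0.19, adjusted p = 0.0001295), and all 20 DIV18 libraries held it at 1.77 or higher while the 24 DIV7 libraries stayed at 0.04 or lower. The Slit2 start, chr5:47983300-47983799, scored 1.20 and 1.54 unstimulated and 1.41 and 1.31 in KCl at DIV7, against 0, 0, 0.28 and 0.13 at DIV18. Its fall of 1.26 (SE 0.14, adjusted p = 0.0006748) stood at -1.64 against the DMSO libraries, and over all libraries the DIV7 range of 0.80 to 2.02 lay above the DIV18 range of 0.00 to 0.57. At Slit1 a flank region, chr19:41763790-41764289, fell by 1.25 (SE 0.28, adjusted p = 0.01059), from 3.36, 2.29, 2.94 and 2.46 to 1.92, 1.55, 1.01 and 1.57. Against the DMSO libraries the difference was -0.38 (limma adjusted p = 0.1012).

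Netrin regions had 12 rises and 2 falls among 27 in the non-targeting comparison (44.4% and 7.41%, against 29.7% and 21.8% of all regions). Against the DMSO libraries the split was 14 and 20 of 39, where 30.8% and 36.3% of all regions rose and fell. As whole loci Ntn3 and Ntn1 rose against the non-targeting libraries, Ntn1 turning against the DMSO libraries as given above, and Ntn4 was not called (0.05, SE 0.06, adjusted p = 0.4974). Ntn3 had 7 rises and 1 fall among 12. Its flank region chr17:24197288-24197787, inside the neighbouring gene Tbc1d24, scored 3.21 and 2.94 unstimulated and 1.47 and 0.99 in KCl at DIV18 and 0 in all 24 DIV7 libraries. It rose by 2.15 (SE 0.16, adjusted p = 0.0001638), and its DIV18 level was higher without KCl. Ntn1, the founding axon attractant, rose at its body region chr11:68244715-68245214 by 1.53 (SE 0.16, adjusted p = 0.0005063). The scores there were 1.92 and 1.48 unstimulated and 1.62 and 1.45 in KCl at DIV18, against 0.17, 0, 0 and 0.17 at DIV7, and 0 in the DMSO libraries. That region stayed near 0 in every DIV7 library, at 0.19 or lower.

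The netrin receptors had 20 rises and 17 falls among 88 regions (22.7% and 19.3%, against 29.7% and 21.8% of all regions). Unc5d, a receptor marking upper cortical layers, held the member region with the largest difference of all, although 9 of its 26 regions fell and 3 rose. At chr8:28722809-28723308, 76342 bp from the nearer gene end, the DIV18 libraries scored 4.25 and 3.68 unstimulated and 3.45 and 3.48 in KCl, and all 24 DIV7 libraries scored 0. The rise was 3.72 (SE 0.15, adjusted p = 5.131e-05), at a region tested only because the DIV18 libraries held it. The 20 DIV18 libraries of all genotypes, which include these 4, lay between 2.35 and 4.25. Unc5c had a body region that fell, chr3:141618671-141619170, from 2.00, 2.16, 1.98 and 2.50 to 0 in all 4 (SE 0.16, adjusted p = 0.0001593, difference -2.16), and 5 of its 14 regions rose. Dcc, the attractant netrin receptor, had 5 falls and 2 rises among 18 regions. Its named body region scored 2.15, 1.34, 1.09 and 0 at DIV18 and 0 in all DIV7 libraries, a difference of 1.15 (adjusted p = 0.01593) that was not called without either DIV7 non-targeting KCl library, at the same difference. Unc5cl, taken by symbol only, rose at a flank region, chr17:48545457-48545956. It scored 2.49 and 2.72 unstimulated and 2.92 and 3.02 in KCl at DIV18, and 0 in all 24 DIV7 libraries (2.79, SE 0.12, adjusted p = 5.415e-05).

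Semaphorins had 55 rises and 51 falls among 237 regions (23.2% and 21.5%), where 29.7% of all regions rose and 21.8% fell. Sema4a, a transmembrane class 4 semaphorin, had 6 rises and no fall among 10, and Sema4c, of the same class, no rise and 6 falls among 11. The Sema4a flank region chr3:88435543-88436042 scored 3.15 and 3.57 unstimulated and 1.78 and 1.71 in KCl at DIV18 and 0 in all 24 DIV7 libraries (difference 2.55, SE 0.14, adjusted p = 7.699e-05). Every DIV18 library held it, the lowest at 0.64. Flank regions also rose at Sema4f (chr6:82909076-82909575, 2.39), at Sema3g (chr14:31197765-31198264, 2.47, inside Nisch) and at Sema4d (chr13:51678543-51679042, 1.99, inside Secisbp2). Sema3a, a secreted repellent of cortical axons, fell in the body at chr5:13469334-13469833, from 1.76, 1.60, 2.31 and 1.96 at DIV7 to 0 in all 4 DIV18 libraries (-1.90, SE 0.14, adjusted p = 0.0001633). None of the 20 DIV18 libraries held that region, and 22 of the 24 DIV7 libraries did. Sema5a fell likewise at chr15:32376251-32376750 (-2.04, SE 0.18, adjusted p = 0.0003137), with no DIV18 library holding it.

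Plexins, the semaphorin receptors, had 37 rises and 29 falls among 124 regions (29.8% and 23.4%, against 29.7% and 21.8% of all regions), 15 and 10 of them at Plxna4 alone. The Plxnd1 body region chr6:115989490-115989989 scored 4.02 and 3.91 unstimulated and 2.91 and 2.61 in KCl at DIV18, against 0.78, 0.93, 1.22 and 0 at DIV7. It rose by 2.63 (SE 0.27, adjusted p = 0.0005153), and the 20 DIV18 libraries, from 2.02 up, stood above the 24 DIV7 libraries, which reached 1.22. A Plxna4 body region, chr6:32373758-32374257, fell by 2.20 (SE 0.16, adjusted p = 0.0001717) and differed by -0.18 against the DMSO libraries (adjusted p = 0.1407). The Plxna2 start, chr1:194618954-194619453, scored 3.73, 3.87, 3.36 and 3.87 at DIV7 and 0.85 and 0.69 unstimulated but 2.32 and 2.07 in KCl at DIV18 (-2.22, SE 0.16, adjusted p = 0.0001453). When whole intervals were ranked the difference there was 0.20, not called.

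Ephrins and Eph receptors signal between touching cells. Eph receptors had 37 rises and 40 falls among 174 regions (21.3% and 23.0%, against 29.7% and 21.8% of all regions). Ephb1 had 11 falls and 1 rise among 19 regions, and Ephb2, which acts at dendritic spines, 12 rises and 5 falls among 35. The Ephb1 body region chr9:102039172-102039671 scored 3.93 and 3.93 unstimulated and 3.45 and 3.83 in KCl at DIV7, against 0.52, 1.23, 0.23 and 0.51 at DIV18 (-3.16, SE 0.19, adjusted p = 0.0001049). The DMSO libraries, at 1.03 to 1.66, lay below the DIV7 non-targeting libraries and overlapped the DIV18 ones. Against the DMSO libraries the difference was -0.70 (adjusted p = 0.01363). The Ephb2 body region chr4:136741806-136742305 rose by 2.50 (SE 0.16, adjusted p = 0.0001123), from 1.30, 1.41, 1.45 and 1.73 to 4.25, 4.58, 3.31 and 3.75, and by 1.75 against the DMSO libraries. Epha4, which binds both classes of ephrins, rose at chr1:77462178-77462677 from 0 in all DIV7 libraries to 3.15 and 2.54 unstimulated and 3.15 and 2.83 in KCl (2.92, SE 0.17, adjusted p = 9.461e-05). All 20 DIV18 libraries held it, the lowest at 0.68.

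Epha5 and Epha7 gave no steady answer. The Epha5 start region chr5:84416653-84417152, which is also a start of Gm42163, fell by 1.87 (SE 0.16, adjusted p = 0.0002558) against the non-targeting and rose by 1.32 against the DMSO libraries (adjusted p = 5.142e-05). Under FHT1015 it was 1.78 higher than in DMSO (SE 0.49, adjusted p = 0.00829) and differed by -0.26 with whole intervals. Over the 24 DIV7 libraries its scores ran from 0 to 3.68, and 13 of them held it. An Epha7 body region, chr4:28814750-28815249, differed by -0.82 (SE 0.24, adjusted p = 0.02893). The adjusted p exceeded 0.05 without any of 5 single libraries (differences -0.60 to -0.91), and the difference was 0.52 when whole intervals were ranked. The 24 DIV7 libraries lay at 2.02 to 3.07 and the 20 DIV18 libraries at 0.71 to 1.94 there.

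Ephrins had 22 rises and 24 falls among 100 regions, where 29.7% of all regions rose and 21.8% fell. Efna1 had 6 rises and 1 fall among 13 and Efnb2, a transmembrane ephrin, 1 rise and 9 falls among 20. The Efna1 body region chr3:89277389-89277888 scored 2.76 and 2.42 unstimulated and 1.72 and 1.29 in KCl at DIV18 and 0 in all DIV7 libraries (2.05, SE 0.16, adjusted p = 0.0001925). The Efnb2 body region chr8:8621193-8621692 scored 2.45 and 2.46 unstimulated and 1.71 and 1.91 in KCl at DIV7, against 0.15, 0, 0 and 0.16 at DIV18 (-2.05, SE 0.13, adjusted p = 0.0001071). Its DMSO libraries scored 0.78 to 1.99, above all DIV18 libraries, which reached 0.47. Efna3 and Efna4 are neighbours, and the region chr3:89336825-89337324, 953 bp from the Efna4 start, lies in both loci. It fell by 2.46 (SE 0.27, adjusted p = 0.000664), from 2.79, 1.71, 2.40 and 3.05 to 0.07, 0.02, 0 and 0. The most changed Efna4 region was a flank region that rose, chr3:89354786-89355285, inside Dcst1 and Dcst2. It scored 3.58 and 3.06 unstimulated and 2.79 and 2.56 in KCl at DIV18, against 0.50, 0.68, 0 and 0 at DIV7 (2.70, SE 0.16, adjusted p = 9.391e-05). Efna5, a repellent of the A class, fell at chr17:62821166-62821665 by 0.98 (SE 0.22, adjusted p = 0.0108), with DIV7 scores of 1.80, 1.77, 1.27 and 1.42 and DIV18 scores of 1.65, 0.69, 0 and 0, so that the ages overlap there.

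**Figure D3:**
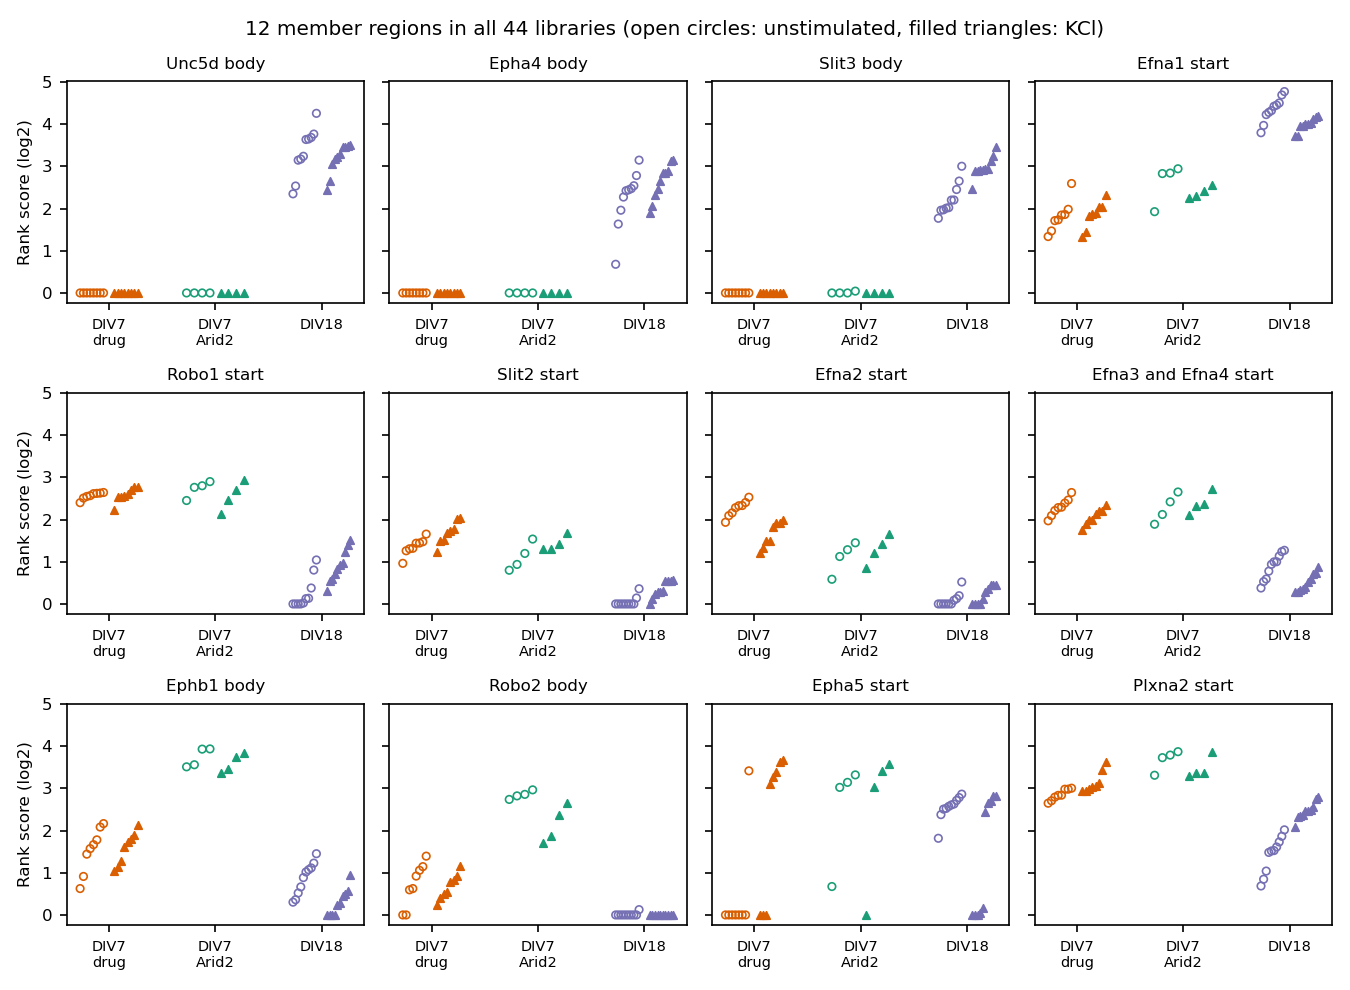
Rank scores (log2, vertical axis) of 12 member regions in all 44 libraries, split into the DIV7 drug, DIV7 Arid2 and DIV18 experiments (horizontal axis); each point is a library, sorted by value within its group. The upper row is high at DIV18, the middle row high at DIV7 in both experiments. In the lower row Ephb1 and Robo2 are higher in the DIV7 Arid2 than in the DIV7 drug experiment, and Epha5 is at 0 in part of every experiment. The panel named for Efna3 and Efna4 shows the Efna4 start, in the flank of Efna3.

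The experiments differed at the same age. Between the non-targeting and DMSO libraries of DIV7, 164 of 867 member regions were higher and 293 lower in the non-targeting ones, where 22.7% and 32.3% of all regions were. At the starts the counts were 19 higher and 69 lower of 152, against 14.4% and 41.5% of all gene starts. Against the DMSO libraries, 95 of 153 member starts fell with age and 15 rose (62.1% and 9.80%), where 45.3% of all gene starts fell and 17.0% rose, and 30.8% of all regions rose and 36.3% fell. These comparisons share libraries, so their counts stand side by side and are not added evidence. With both DIV7 arms in a single fit the split was 251 rises and 393 falls of member regions, and 8 and 89 at the starts.

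Regions whose 24 DIV7 libraries did not overlap the 20 DIV18 libraries, a count chosen after seeing the data, rest on both arms. Among 1319 member regions compared, 43 were higher at DIV18 throughout and 16 lower (3.26% and 1.21%), near the 3.56% and 1.1% of 158987 regions. Slits had 6 higher and 1 lower of 109 (5.5% and 0.917%) and netrins 4 and 0 of 50 (8% and 0%). Plexins had 4 and 0 of 186 (2.15% and 0%), Eph receptors 8 and 2 of 248 (3.23% and 0.806%). Semaphorins had 11 and 2 of 367 (3% and 0.545%), ephrins 5 and 6 of 123 (4.07% and 4.88%). Netrin receptors had 2 and 1 of 131 (1.53% and 0.763%), and Robos 1 and 4 of 91 (1.1% and 4.4%). At member starts 1 of 171 was higher and 5 lower, against 1.76% and 1.65% of all gene starts. The higher start was that of Efna1, chr3:89279417-89279916, over the promoter shown above, with 1.31, 1.95 and 2.94 at DIV7 (lowest, median, highest) and 3.71, 4.14 and 4.77 at DIV18. The 5 lower starts were those of Robo1, Slit2, Efna2, Efna4 and Efnb3, so that 3 of them belong to ephrins. No strand was known for Efnb3, whose region lies 935 bp from a gene end. The Efna2 start, chr10:80179140-80179639, scored 0.58, 1.74 and 2.53 at DIV7 and 0.00, 0.04 and 0.52 at DIV18. The Efna4 start, chr3:89337839-89338338, scored 1.75, 2.21 and 2.72 and then 0.28, 0.65 and 1.27. At Efnb3, chr11:69559965-69560464, the values were 0.83, 1.56 and 2.08 and then 0.00, 0.18 and 0.47. Among these chosen starts Efna1 was higher at DIV18 and Efna2, Efna4 and Efnb3 lower. They were chosen because the libraries of the 2 ages do not overlap, so the separation in every library follows from the choice. Efna1 has 4 start regions, and the others did not meet it.

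The share of each library's best 100000 summits that lay in member loci was counted without a test. It was 0.835% to 0.936% in the 24 DIV7 libraries and 0.768% to 0.858% in the 20 DIV18 libraries, which overlap. For receptors the non-targeting libraries had 0.408% to 0.451% at DIV7 and 0.360% to 0.392% at DIV18, and for ligands 0.418% to 0.436% and 0.416% to 0.435%. The receptor shares of these 8 libraries do not overlap and the ligand shares do. With the 4 DMSO libraries of 30 min as the DIV7 arm neither overlaps: their receptor share was 0.403% to 0.431% and their ligand share 0.480% to 0.507%, both above the DIV18 non-targeting libraries. Over all 24 and 20 libraries both overlap, receptors at 0.395% to 0.451% and 0.347% to 0.399% and ligands at 0.413% to 0.507% and 0.401% to 0.453%.

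The loci of cell type markers were followed by the summed rank score of each list's regions. Called regions are given for some of the lists, and 29.7% of all 107551 tested regions rose with age and 21.8% fell. All 12 neuron markers held regions in every group of libraries, and their sum was 165 to 176 in the DIV7 and 194 to 251 in the DIV18 non-targeting libraries, and 140 to 148 in the DMSO libraries of 30 min. Inhibitory neuron loci stood at 55.5 to 86.3 and 22.0 to 28.2, with 49 falls and 6 rises among 85 regions, and at 36.9 to 42.9 in the DMSO libraries. Astrocyte loci stood at 60.9 to 66.7 and 83.8 to 93.9 (30 rises and 17 falls of 88), and oligodendrocyte lineage loci at 47.9 to 55.0 and 75.1 to 99.3 (36 rises and 10 falls of 71), with Mag holding no region at DIV7. The DMSO libraries stood at 97.3 to 124 for astrocyte loci, above the DIV18 range, and at 98.4 to 121 for the oligodendrocyte lineage, from within the top of the DIV18 range upward, so that the direction with age turns with the DIV7 arm for both. Progenitor loci stood at 54.6 to 57.7 and 52.2 to 66.8, but at 134 to 148 in the DMSO libraries. Microglial loci summed to 36.4 to 40.9 and 34.2 to 36.04 in the non-targeting libraries, where P2ry12 held no region at DIV7 and Itgam none at DIV18. Vascular and meningeal loci summed to 17.5 to 21.8 and 19.3 to 23.8 there, with Tek and Dcn holding no region at DIV18. Over all 24 DIV7 and all 20 DIV18 libraries every marker of these last lists held a region. The part of these cells in the members' differences was not tested. Of 54 other autosomal pathway genes, such as Nrp1, Dpysl2 and Srgap1, 347 of 1084 regions rose and 256 fell. These are 32.0% and 23.6%, near the 29.7% and 21.8% of all regions.

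Depolarization was followed first in the DMSO libraries of DIV7. After 10 min of KCl 69 of 862 member regions rose and 115 fell, where 5.71% and 13.2% of 99332 regions did. After 30 min 118 rose and 185 fell, where 12.2% and 19.6% did. At DIV18, over all 5 genotypes, 154 of 939 rose and 240 fell, where 16.8% and 23.6% of 113733 did. At the starts, 26 of 160 rose and 4 fell at 10 min (all gene starts 13.8% and 4.46%), 41 rose and 14 fell at 30 min (all gene starts 21.7% and 9.65%), and 68 of 147 rose and 14 fell at DIV18 (all gene starts 34.1% and 11.9%). Robo regions rose more often than they fell at 30 min of DIV7 (13 and 9 of 53) and at DIV18 (11 and 8 of 47), while Slits fell more often (9 and 24 of 73, then 9 and 24 of 70), as did plexins (12 and 31 of 114, then 15 and 41 of 137). The excess of falls rests on ranking summits: with whole intervals the splits were 49 and 32, 144 and 121, and 256 and 228, and with windows of 1000 bp 38 and 120 at 10 min. In the DIV7 non-targeting libraries KCl moved 3 of 899 member regions (all regions 1.18%), with 107 at an unadjusted p under 0.05. The response differed between the ages, by the interaction term over the 8 non-targeting libraries, at 11 member regions upward and 28 downward of 899 (all regions 1.61% and 2.56%). None of the 39 was called without either DIV18 non-targeting KCl library or without any of the 4 DIV7 non-targeting libraries, nor was any called with the replicate number as a block.

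A response present in every pair of groups lay 13574 bp from the Efna2 start, in a flank region that is also the start of Cirbp, an RNA-binding protein gene, at chr10:80165658-80166157. In DMSO it scored 1.32 and 1.35 unstimulated and 2.68 and 2.73 after 30 min of KCl, a rise of 1.37 (SE 0.12, adjusted p = 2.989e-05). After 10 min the scores were 2.30 and 2.10 against 1.30 and 1.49, a rise of 0.81 (SE 0.12). In DIV7 non-targeting libraries they were 4.39 and 4.04 against 2.57 and 2.50, a rise of 1.68 (adjusted p = 0.0243). Every KCl library exceeded the unstimulated libraries of its own group, under FHT1015 too, where the rises were 0.56 at 10 min and 1.71 at 30 min. At DIV18 the rise was 1.65 over the genotypes (SE 0.08, adjusted p = 4.471e-09), from 1.30 in the knockout to 1.95 in the non-targeting libraries. With whole intervals the DIV18 difference was 0.33 and was not called. Whether the region acts on Efna2 or Cirbp cannot be read from accessibility.

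Sema7a, a membrane-anchored semaphorin, had a flank region that moved the other way, chr9:57933130-57933629. In DMSO it scored 2.12 and 2.43 unstimulated and 0.19 and 0.03 after 30 min of KCl (-2.16, SE 0.13, adjusted p = 3.902e-06), and 2.36 and 2.28 against 1.22 and 1.27 after 10 min (-1.07, SE 0.13). At DIV18 it fell by 1.64 (SE 0.11, adjusted p = 1.584e-07), and in each of the 5 genotypes, by 1.11 to 2.17. The KCl libraries lay below the unstimulated ones in all these groups. In the DIV7 non-targeting libraries the scores were 1.71 and 1.53 in KCl against 1.80 and 2.16, a difference of -0.36 (adjusted p = 0.558). FHT1015 lowered it without KCl, to 1.43 and 1.36 at 10 min and 0.26 and 0.28 at 30 min, and with the inhibitor the KCl differences were -0.17 and -0.27, neither called. The whole locus had 5 falls and no rise among 7 regions at 30 min of DIV7, where 19.6% of all regions fell and 12.2% rose. At DIV18 it had 10 falls and 1 rise among 18, where 23.6% and 16.8% did.

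The Slit3 start, chr11:35121125-35121624, over the promoter with 6 GC boxes, rose with KCl in DMSO, from 0.87 and 0.71 to 1.83 and 2.10 at 10 min (1.17, SE 0.16, adjusted p = 0.0008769) and from 1.11 and 1.28 to 2.29 and 2.10 at 30 min (1.00, SE 0.16). At DIV18 it rose by 0.84 (SE 0.12) over the genotypes. In the DIV7 non-targeting libraries it did not rise: the scores were 1.03 and 0.58 unstimulated and 0.71 and 0.71 in KCl, a difference of -0.10 (SE 0.21, adjusted p = 1.0). The Arid2 knockout libraries scored 0.52 and 0.73, then 0.67 and 0.52. Under FHT1015 the differences were 0.18 and 0.33 and were not called, with KCl scores of 1.34 and 1.00 at 10 min. The call at 10 min was lost with whole intervals (0.59) and with windows of 1000 bp (0.43). Other Slit3 regions fell: the body region chr11:35668621-35669120, at 0 in all 24 DIV7 libraries, fell by 1.83 at DIV18 (SE 0.16, adjusted p = 1.291e-06), from 3.70 and 3.49 to 1.37 and 0.94 in the non-targeting libraries. Over its locus Slit3 had 5 rises and 17 falls among 38 regions at DIV18, where 16.8% of all regions rose and 23.6% fell.

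Unc5a, a repellent netrin receptor, fell at chr13:55000335-55000834 by 1.86 at DIV18 (SE 0.17, adjusted p = 1.886e-06), from 3.09 and 2.56 to 1.11 and 0.41 in the non-targeting libraries and by 1.64 to 2.07 in each genotype. At DIV7 no library scored above 0.60 there, and all 16 libraries of the drug experiment were at 0. The Ntn3 flank region inside Tbc1d24 fell by 1.65 (SE 0.17, adjusted p = 6.16e-06) and an Ephb2 body region, chr4:136664965-136665464, by 1.54 (SE 0.11, adjusted p = 1.613e-07). At DIV18 16.8% of all regions rose and 23.6% fell, and at 30 min of DIV7 12.2% and 19.6% did. Among genes chosen after their counts were seen, Ephb2 had 15 falls and 3 rises among 41 regions at DIV18. It had 10 falls and no rise among 33 at 30 min of DIV7. Efnb2 had 7 rises and no fall among 16 at DIV18, and Epha4 7 and none among 27. The plot of depolarization shows the group values of 4 of these regions.

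Further large differences after KCl in DMSO were found at Plxna1 (chr6:89344896-89345395, -1.51, SE 0.19) and Ephb2 (chr4:136652160-136652659, -1.33, SE 0.20) at 30 min and in the Efnb3 body (chr11:69559412-69559911, 0.98, SE 0.16) at 10 min; the last was 0.30 and not called with whole intervals. Other calls were lost when single libraries were left out. At 10 min a region at the start of Zyx in the Epha1 flank (chr6:42349957-42350456, 2.86, SE 0.78, adjusted p = 0.0264) and a Plxna2 body region (chr1:194620699-194621198, -1.66, SE 0.45, adjusted p = 0.0267) were not called without any 1 of the 4 libraries. The Epha1 region scored 0.47 and 0.00 unstimulated and 2.98 and 3.21 in KCl, and the Plxna2 region 1.81 and 1.51 and then 0 and 0, so that the groups do not overlap and the differences stayed at 2.62 to 3.10 and at -1.51 to -1.81. Sema6a differed by 1.59 (adjusted p = 0.0247), and by 0.69, not called, without the second unstimulated library. At 30 min the Unc5b start (chr10:60830762-60831261, 1.67, SE 0.47, adjusted p = 0.0184) was likewise not called without any 1 of the 4 libraries, with scores of 0 and 0 and then 1.65 and 1.70 and differences of 1.65 to 1.70. A Sema6d body region (chr2:124609576-124610075, -1.63, SE 0.51, adjusted p = 0.0303) was not called without either unstimulated library, nor without the first KCl library, where it was -0.46.

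**Figure D4:**
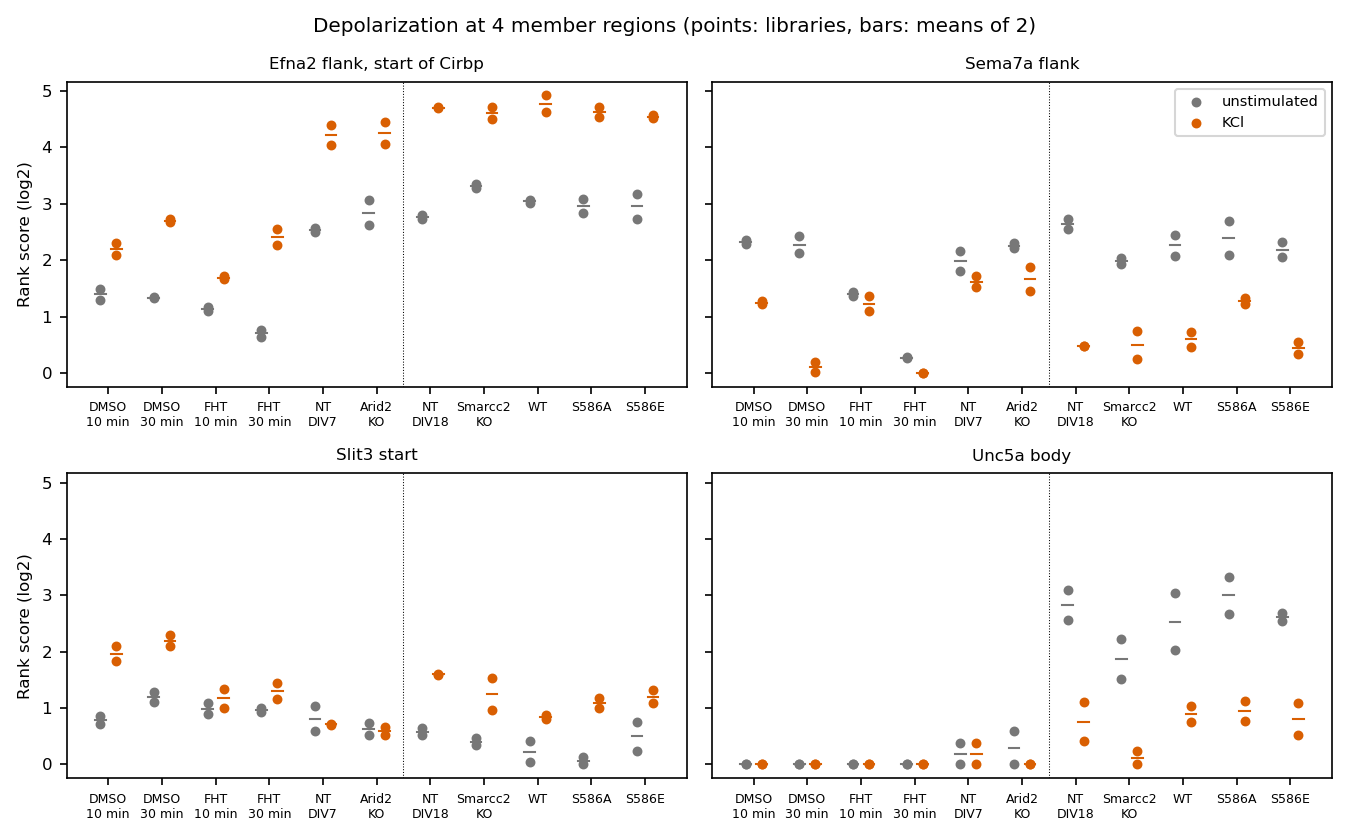
Rank scores (log2, vertical axis) at 4 member regions in the 11 pairs of groups (horizontal axis), DIV7 left of the dotted line and DIV18 right of it; grey points are unstimulated and orange points KCl libraries, with bars at the mean of 2. KCl libraries are higher at the Efna2 flank in every pair and lower at the Sema7a flank by 1.07 to 2.17 in the DMSO and DIV18 pairs, and the Unc5a region is near 0 at DIV7.

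The BAF inhibitor was followed in the drug experiment. Over both times and states 212 of 862 rose and 339 fell, where 25.9% and 36.4% of all regions did. With the number of summits as a covariate, which was 340149 to 389907 in the DMSO and 233609 to 364986 in the FHT1015 libraries, 50 rose and 133 fell. Body regions had 79 rises and 240 falls of 505 (15.6% and 47.5%, against 22.1% and 43.5% of all body regions), and starts 50 and 42 of 160 (31.3% and 26.3%, against 31.2% and 20.5%). Slits had 12 rises and 42 falls among 73 regions and netrins 4 and 17 among 30, whereas ephrins had 38 rises and 26 falls among 100. By gene, Slit3 fell at 24 of 33 regions, Ephb2 at 17 of 33, Plxna4 at 16 of 28 and Sema4d at 11 of 13, and Efna2 rose at 10 of 22.

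The Sema5b body region chr16:35581281-35581780 had the largest fall under FHT1015. Without KCl it scored 2.95 and 2.70 in DMSO and 1.21 and 1.00 under the inhibitor at 10 min, and 3.11 and 3.04 against 0.69 and 0.68 at 30 min. With KCl the values were 2.77 and 2.55 against 1.75 and 1.84, and 2.41 and 2.63 against 0.73 and 0.67. It fell by 1.70 on average (SE 0.06, adjusted p = 3.301e-08), and each single contrast was called, from -0.87 to -2.39. Sema5b encodes a transmembrane semaphorin with thrombospondin repeats. The Ephb2 body region chr4:136793216-136793715 fell by 1.56 (SE 0.06, adjusted p = 6.207e-08), from 2.68 and 2.66 to 0 and 0 at 30 min without KCl and from 1.88 and 1.71 to 0 and 0 with it. At Slit1, chr19:41693714-41694213, the fall was 1.46 (SE 0.09, adjusted p = 4.335e-07), at the Efna2 flank chr10:80208751-80209250 it was 1.34 (SE 0.07, adjusted p = 1.406e-07), and at the Slit3 body chr11:35537402-35537901 1.33 (SE 0.07, adjusted p = 2.513e-07). At the Slit1 and Slit3 regions the 30 min unstimulated FHT1015 libraries were at 0, and the DMSO libraries at 1.63 and 2.17 and at 1.09 and 1.62. At each of these 5 regions, named for the size of their called changes, both FHT1015 libraries lay below both matched DMSO libraries. How many of all regions show this was not counted.

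Smarcc2 knockout was compared at DIV18 over both states. It moved 35 of 939 member regions up and 58 down, where 3.51% and 7.3% of all regions rose and fell, and 8 of 147 starts up and 1 down (all gene starts 3.95% and 0.859%). Slits had 10 falls and 2 rises among 70 regions, 6 of the falls at Slit3, and Unc5d 4 falls and 1 rise among 17. The add-back of wild-type Smarcc2, compared with the knockout, had 44 rises and 27 falls, where 4.53% and 3.27% of all regions rose and fell. These comparisons share the 4 knockout libraries. Leaving out single libraries changed the counts to between 40 and 116 for the knockout (lowest without the second non-targeting KCl library, 46 without the first) and between 34 and 60 for the add-back (lowest without the first wild-type KCl library). The add-back split turned to 23 rises and 33 falls without the second unstimulated knockout library and to 21 and 29 without the second knockout KCl library.

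At Ntn1 the body region that rose with age, chr11:68244715-68245214, scored 1.92 and 1.48 unstimulated and 1.62 and 1.45 in KCl with the non-targeting guide. In the knockout it scored 0.36, 0.04, 0.06 and 0, a fall of 1.50 (SE 0.20, adjusted p = 0.0006313). With wild-type Smarcc2 added it scored 1.45 and 0.94 unstimulated and 1.27 and 0.87 in KCl, 1.02 above the knockout (SE 0.20, adjusted p = 0.00772). The knockout libraries lay below all other DIV18 libraries there. A region inside Cep83 in the Plxnc1 flank, chr10:94777427-94777926, scored 2.94, 2.49, 2.66 and 2.95 with the non-targeting guide, 0.57, 1.47, 0.92 and 1.45 in the knockout and 1.95, 2.23, 2.68 and 2.30 with the add-back. It fell by 1.66 (SE 0.22, adjusted p = 0.000727) and was 1.19 higher with the add-back (SE 0.22, adjusted p = 0.00652). The Sema3e body region chr5:14195141-14195640 scored 2.27, 2.30, 1.85 and 1.88, then 1.31, 1.51, 1.16 and 1.19 in the knockout, and 2.40, 3.14, 2.05 and 2.44 with the add-back. Its differences were -0.78 (SE 0.19, adjusted p = 0.0163) and 1.21 (SE 0.19, adjusted p = 0.00209), and Sema3e encodes a secreted ligand of Plxnd1. These regions were named for the size of their called changes. In all of them the knockout group did not overlap the other groups compared, but the share of all regions with such separation was not counted.

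Further falls in the knockout were seen at Plxna4 (chr6:32479100-32479599, -1.26, SE 0.19), at Sema5a (chr15:32613736-32614235, -1.15, SE 0.19) and at Ephb2 (chr4:136664965-136665464, -1.14, SE 0.17). The Plxna4 region was 0.84 higher with the add-back (adjusted p = 0.0154) and Sema5a 0.44 higher (adjusted p = 0.177, not called). The Slit3 body region that KCl lowered was 1.26 higher with the add-back (SE 0.25, adjusted p = 0.00912; 0.65 and not called with whole intervals) and differed by -0.72 in the knockout (adjusted p = 0.0801). With the add-back Sema3f (chr9:107699965-107700464, 1.08, SE 0.21) and a region at the start of Tbc1d24 in the Ntn3 flank (chr17:24199032-24199531, 1.05, SE 0.17) were also higher. The Ephb6 flank region inside Trpv6 (chr6:41631454-41631953, 1.05, SE 0.30, adjusted p = 0.0456) lost its call without any of 7 of the 8 libraries. The Epha5 start was 1.50 higher in the knockout (SE 0.38, adjusted p = 0.0226), lost its call likewise and was 0.06 and not called with whole intervals.

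**Figure D5:**
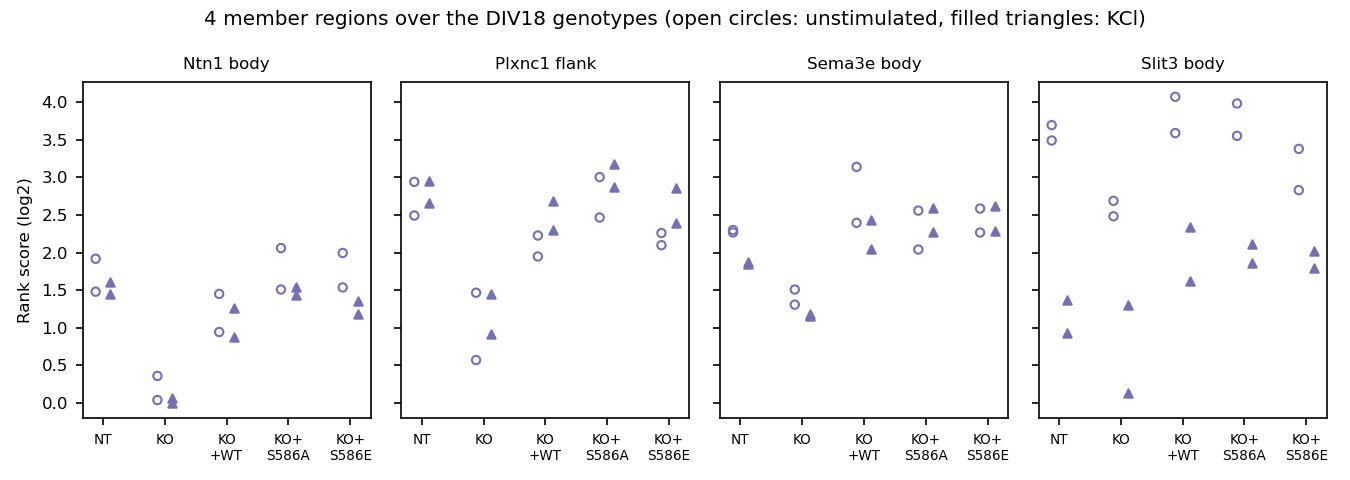
Rank scores (log2, vertical axis) at 4 member regions in the 20 DIV18 libraries by genotype (horizontal axis): non-targeting guide, Smarcc2 knockout with vector, and knockout with wild-type, S586A or S586E Smarcc2. Each point is a library; at Ntn1 the knockout libraries lie at 0.36 or lower and all other libraries at 0.87 or higher.

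Between S586E and S586A 3 member regions were higher and 1 lower (all regions 0.387% and 0.103%), with 106 at an unadjusted p under 0.05. They were a Plxna4 body region (0.99, SE 0.16, adjusted p = 0.0144) and a region within 1 kb of an Ntn1 gene end (0.83, SE 0.14, adjusted p = 0.0181). The Sema6b flank region at the start of Plin4 was also higher (0.27, SE 0.04, adjusted p = 0.00517). A start region in the loci of both Efna3 and Efna4 was lower (-0.55, SE 0.10, adjusted p = 0.0218). The Plxna4 and Ntn1 calls were lost without either S586A KCl library, and the count ran from 1 to 30 when single libraries were left out, reaching 30 without the second unstimulated S586E library and 1 without the second S586A KCl library. With whole intervals 2 member regions were called, and the region at an Ntn1 gene end, the Efna3 and Efna4 region and the Sema6b region were not. At the Ntn1 body region the difference was -0.12 (SE 0.20, adjusted p = 0.896). Arid2 knockout at DIV7 gave no called member region of 764 by limma (all regions 0.00445%), with 35 at an unadjusted p under 0.05 and 2 called when whole intervals were ranked.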

How the data were processed

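Each of the 44 libraries has 1 deposited peak list on mm10. In each list the authors gave, per summit, the −log10 p and −log10 q of the peak caller and the fold enrichment, a ratio over background, as the column layout of the deposited lists has it. Tools listed in the submitters' processing notes are Bowtie2 and MACS2, with SAMtools, Picard, bedtools, Trim Galore and FastQC; their settings are not given in the sources used here. From each list the autosomal summits were ranked by −log10 p, the best 100000 kept, and joined across libraries into windows of 500 bp, best rank first. Rank scores were fitted per experiment with limma 3.58.1 in R 4.3.3 (1 mean per group, two-sided), where 2 or more libraries of the fit hold the region, with Benjamini-Hochberg adjustment over all tested regions and calls at an adjusted p below 0.05. Locus values are means over at least 3 tested regions. Lists hold 178672 to 389907 autosomal summits, and this number limits how deep ranks reach. The procedure was tested on simulated data.

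The members and lists were chosen with earlier results of these data known. Named genes at DIV18 against DIV7 are the first 24 by the change of their most changed called region with separate groups, plus 14 named whatever their values; elsewhere up to 6 genes per comparison. Regions beyond this rule, and the comparison of all 24 DIV7 with all 20 DIV18 libraries, were chosen after their values were seen. Alternatives were the number of summits kept, whole intervals, windows of 1000 bp, no filter, a replicate block, the number of summits as a covariate, gene bodies only, the other DIV7 arm and leaving out each library.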

Additional observations from a re-analysis of the deposited data

Results flagged for a closer look

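The response to KCl differed between DIV18 and DIV7 by the interaction term in 39 member regions of the non-targeting libraries (limma, 8 libraries). The largest difference was -2.70 at the Epha5 start (chr5:84416653-84417152, adjusted p = 0.0348), where the non-targeting libraries scored 2.52 and 2.61 unstimulated and 0 and 0.16 in KCl at DIV18, against 3.14 and 3.02, then 3.02 and 3.58, at DIV7, and where libraries of 1 group differ elsewhere (0 and 3.41 in unstimulated FHT1015 at 10 min). A Slit3 body region (chr11:35668621-35669120) differed by -2.44 (adjusted p = 0.0348) and Unc5cl (chr17:48551834-48552333) by -2.07 (adjusted p = 0.0483). All 4 DIV7 non-targeting libraries were at 0 in both, so no fall could have been seen at DIV7 and the term gives the fall at DIV18 alone. The Sema5b start (chr16:35540886-35541385) differed by 2.10 (adjusted p = 0.0351). The Sema7a start (chr9:57939255-57939754) differed by -1.97 (adjusted p = 0.0414) and a Plxna4 body region (chr6:32224332-32224831) by -1.90 (adjusted p = 0.0348); at the latter the DIV7 non-targeting libraries scored only 0.46 to 0.57, which leaves little room for a fall. No member region was called by this term with the replicate number as a block, without either DIV18 non-targeting KCl library or without any of the 4 DIV7 non-targeting libraries.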

How the results depend on the processing

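Over the named results, 561 values kept their direction and their side of the threshold under an alternative, 87 lost their call and 13 turned; when single libraries were left out these were 596, 82 and none. The cause of the changes was not tested unless named.

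Counts of called member regions moved by more than 1.5 times as follows. Member regions called, DIV18 against DIV7: 427, but 226 with the best 50000 summits, 654 with the length of the shortest list, 0 with the number of summits as covariate, 658 with the DMSO arm and 644 with both arms. Member gene-start regions called, DIV18 against DIV7: 65, but 41 with windows of 1000 bp, 0 with the covariate, 42 with gene bodies only and 110 with the DMSO arm. The 42 loci became 0 with the covariate. The 39 interaction calls became 0 with the shortest list, the block or the covariate, 25 with bodies only and 167 with the DMSO arm. With the best 50000 summits KCl at 10 min fell from 184 to 115, KCl at 30 min from 303 to 169, FHT1015 from 551 to 260, KCl at DIV18 from 394 to 212, Smarcc2 knockout from 93 to 58, the add-back from 71 to 43 and S586E against S586A from 4 to 1. With whole intervals KCl at 10 min gave 81, Arid2 knockout 2 in place of 0 and S586E against S586A 2. KCl at 10 min gave 109 without the filter, FHT1015 183 with the covariate, and with the shortest list the knockout gave 154 and the add-back 115.

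Leaving out 1 library gave 329 to 409 regions, 51 to 64 starts and 34 to 41 loci for age, 0 to 56 for the interaction, 88 to 107 and 202 to 269 for KCl at 10 and 30 min, 510 to 545 for FHT1015, 0 for Arid2, 356 to 417 for KCl at DIV18, 40 to 116 for the knockout, 34 to 60 for the add-back and 1 to 30 for S586E against S586A.

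Differences that turned were, with whole intervals, Plxna2 with age (0.20), Epha7 with age (0.52), Epha5 in the interaction (0.28) and under FHT1015 (-0.26), Epha1 at 10 min of KCl (-0.16), and at 30 min Unc5b (-0.44) and Sema6d (1.14). With the covariate Epha7 (0.74) and Efna5 (1.02) turned with age. With windows of 1000 bp the Sema7a start in the interaction (0.17) and Plxna2 at 10 min (0.42) turned, and with the DMSO arm Epha5 with age (1.32) and the Sema7a start in the interaction (0.007).

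Replicate numbers are not shown to pair the samples. The correlations of same-numbered libraries' deviations ran from -0.113 to 0.124 over 28 pairs of groups in the drug experiment, from 0.001 to 0.019 over 6 in the Arid2 experiment and from -0.017 to 0.148 over the 6 pairs of non-targeting groups. At DIV18 they were all positive, from 0.03 to 0.205 with 26 of 45 above 0.1, a hint from the data, not the design, that same-numbered libraries moved together there. With the replicate block the calls were 416 regions, 64 starts and 41 loci for age, 0 for the interaction, 173 and 304 for KCl at 10 and 30 min, 540 for FHT1015, 0 for Arid2, 411 for KCl at DIV18, 113 for the knockout, 89 for the add-back and 5 for S586E against S586A.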
